A study of Mus musculus with 6 samples.

Results

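The CXC chemokine ligands Cxcl1, Cxcl2, Cxcl5, Cxcl9, Cxcl10, Cxcl12, Cxcl14 and Cxcl16, with Cxcr4 and Ackr3, the receptors of Cxcl12, were examined in mouse embryonic fibroblasts. These 10 genes of the 18193 with a single symbol on the array were chosen by name, and every probe set annotated to them was used, including those filed under the older names of Ackr3 (Cxcr7, Cmkor1), which gave 17 of 34945 probe sets. Each probe set reads a transcript with several short probes. RNA from primary cultures was measured on 6 Affymetrix arrays, 2 for each genotype at exon 2 of Cas (p130Cas, gene Bcar1). The genotypes were Cas exon 2+/+ (wild type), Cas exon 2+/∆ (heterozygous for the deletion) and Cas exon 2∆/∆ (homozygous), from embryos at 12.5 days post coitum of intercrossed heterozygotes, with strain B6 named for 5 of the 6 cultures. Each culture was grown from an embryo without its head and inner organs, in medium with fetal calf serum, and no sort of cell types is described in the labels. The stated comparison set homozygous cells against both other genotypes.

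Chemokines are small secreted proteins that steer cell movement through receptors coupled to G proteins. Cxcl12 binds Cxcr4, which signals through inhibitory G proteins and guides germ cells, blood cells and endothelium in the embryo, and also Ackr3, an atypical receptor that takes up Cxcl12 and recruits arrestins. Cxcl1, Cxcl2 and Cxcl5 carry the ELR motif, bind Cxcr2 and draw neutrophils, and fibroblasts make them in response to interleukin 1, tumour necrosis factor and Toll-like receptor ligands through NF-kB. Cxcl9 and Cxcl10 lack this motif, bind Cxcr3 on activated lymphocytes and are induced by interferons. Cxcl14 is a chemokine of epithelia and stroma, and Cxcl16 is made as a membrane protein that binds Cxcr6 and is released by the proteases Adam10 and Adam17.

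The 250 bases before the transcription start were read for 8 of the 10 genes from RefSeq promoters of build GRCm38.p6, while Cxcl5 and Cxcl16 had no entry. In the gene order of that build, Cxcl1 and Cxcl2 are next to each other, with 0 protein-coding genes between them, and Ppbp, Pf4, Cxcl3 and Cxcl15 lie between Cxcl5 and Cxcl1. The Art3 gene lies between Cxcl9 and Cxcl10. Windows are shown for Cxcl1 and Cxcl2, the neighbouring ELR ligands, for Cxcl10, the interferon-induced ligand whose homozygote arrays lay apart, and for Cxcl12, the ligand of both receptors. Capitals mark matches on either strand to the NF-kB consensus, to the interferon-stimulated response element (GAAANNGAAA) or to the gamma-activated site (TTCNNNGAA).
Cxcl1 (chr5:90890995-90891244, plus strand): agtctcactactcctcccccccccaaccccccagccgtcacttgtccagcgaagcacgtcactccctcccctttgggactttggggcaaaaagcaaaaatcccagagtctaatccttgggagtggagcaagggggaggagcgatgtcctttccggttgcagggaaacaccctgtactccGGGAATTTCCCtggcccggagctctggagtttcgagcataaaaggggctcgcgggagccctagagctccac
Cxcl2 (chr5:90903649-90903898, plus strand): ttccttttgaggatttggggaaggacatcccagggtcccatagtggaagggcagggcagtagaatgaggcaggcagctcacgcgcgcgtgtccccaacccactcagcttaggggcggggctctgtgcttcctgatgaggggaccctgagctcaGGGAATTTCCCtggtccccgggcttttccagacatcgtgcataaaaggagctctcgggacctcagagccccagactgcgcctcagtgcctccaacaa
Cxcl10 (chr5:92348890-92349139, minus strand): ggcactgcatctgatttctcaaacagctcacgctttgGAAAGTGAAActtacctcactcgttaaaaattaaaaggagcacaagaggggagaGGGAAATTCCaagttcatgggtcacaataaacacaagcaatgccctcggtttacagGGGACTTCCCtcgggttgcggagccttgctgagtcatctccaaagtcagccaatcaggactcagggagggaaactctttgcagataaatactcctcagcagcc
Cxcl12 (chr6:117168285-117168534, plus strand): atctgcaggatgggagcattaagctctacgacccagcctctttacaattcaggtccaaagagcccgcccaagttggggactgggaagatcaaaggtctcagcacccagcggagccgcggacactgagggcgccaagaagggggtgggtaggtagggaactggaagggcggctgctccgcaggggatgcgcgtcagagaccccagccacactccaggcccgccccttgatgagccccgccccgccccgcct

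Cxcl1 and Cxcl2 held the same 11 letters, GGGAATTTCCC, which begin 71 bases before the start in Cxcl1 and 97 in Cxcl2 and match the NF-kB consensus on both strands. Cxcl10 held matches to that consensus 159 and 103 bases before its start, and a match to the response element 213 bases before it. Among all 32851 windows of this length, 3.9% held the NF-kB consensus and 2.98% the response element. In Cxcl14, a response element match began 172 bases before the start and a gamma-activated site match 191 bases before it, a site found in 7.02% of windows. The windows of Cxcl9, Cxcl12, Cxcr4 and Ackr3 held none of these letters. The letters TATAAA, searched on the coding strand and present in 7.59% of windows, were found in Cxcr4, Ackr3 and Cxcl9, starting 30, 8 and 195 bases before the start. These are matches of letters, and no binding was measured.

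Levels are log2(intensity + 1.78) after quantile normalization of the arrays, where the added value is the 10th percentile of all intensities, so fold changes of dim probe sets are understated. The upper 50% of probe sets by mean level, 22519 of 45037, were tested, and 8 of the 10 genes and 13 of their 17 probe sets were among them. Cxcr4 and Cxcl9 were below this filter, and their differences come from the fit without it. Errors of a difference are its standard error (SE) from limma, and errors of a genotype's level are the SD of 2 arrays. With 2 embryos per genotype, the number of arrays limits every value. The deposited medians ran from 21.9 to 27.3 intensity units. By Xist and the Y-linked genes, both homozygotes and wild type 2 were male and both heterozygotes and wild type 1 female, so that genotype and sex cannot be told apart between homozygotes and heterozygotes. The Bcar1 probe set read 9.37 and 8.42 on the wild-type arrays, 8.19 and 8.32 on the heterozygote arrays and 8.08 and 8.43 on the homozygote arrays, and whether its probes lie in the deleted exon was not examined, so it does not check the labels.

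No member differed between genotypes beyond the error by the adjusted test. In homozygotes against the other genotypes limma called 0 of the 8 tested members, as it called 0 of 22519 probe sets (0%), and at an unadjusted p under 0.05 there were 0 members and 560 probe sets, 1.22% of all higher and 1.27% lower. The differences of the 8 members had a median of 0.03 and ran from -0.59 for Cxcl2 to 0.79 for Cxcl5, beside a median of -0.00393 over all tested probe sets. The values were positive for 4 of the 8 members and for 49.3% of all probe sets. The other 3 comparisons also called 0% of probe sets and 0 members. In homozygotes against wild type 6 of 8 members were positive, beside 47.9% of all probe sets, and in heterozygotes against wild type also 6 of 8, beside 48.9%. Against heterozygotes 3 of 8 were positive, beside 49.3%. Without the filter, all 10 members could be tested, and 0 of them and 0% of 45037 probe sets were called in any comparison.

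**Figure D1:**
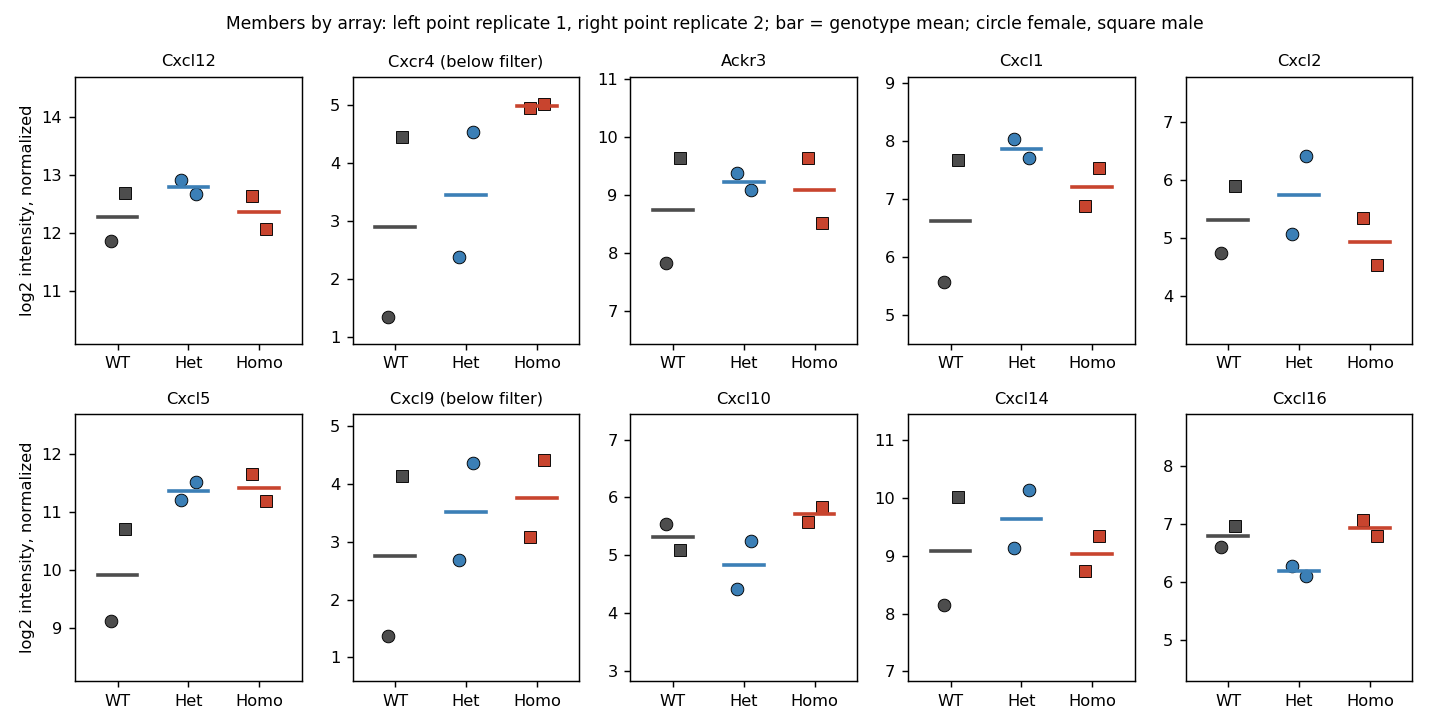
Normalized log2 intensity of each member on the 6 arrays, by genotype, with the first-named probe set of each gene; every panel spans the same number of log2 units. Bars are genotype means, and circles and squares are female and male embryos by their sex-linked genes. Wild type 1 is the lowest point for Cxcl12, Ackr3, Cxcl1, Cxcl5 and Cxcl14, and for Cxcr4 and Cxcl9, which lie below the filter. Both homozygotes lie above the other arrays for Cxcl10 and for Cxcr4, a position held by 3.27% of tested probe sets, which do not include Cxcr4.

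Cxcl12 was measured by 3 probe sets. The first (1448823_at) gave deposited intensities of 4189 and 6499 on the wild-type arrays, 7453 and 6782 on the heterozygote arrays and 5773 and 4472 on the homozygote arrays. Wild type 1 and homozygote 2 were the low arrays, and the genotypes overlapped. The order of the means was heterozygotes (12.80 ± 0.17, SD, n = 2), homozygotes (12.36 ± 0.40) and wild type (12.28 ± 0.59), and no neighbours in it differed by the test, with homozygotes minus heterozygotes at -0.44 (SE 0.36, limma adjusted p = 1) and homozygotes minus wild type at 0.08 (SE 0.36, limma adjusted p = 0.991). Homozygotes differed from the other genotypes by -0.18 (SE 0.31, 95% interval -0.93 to 0.56, limma adjusted p = 1), and with single arrays left out by -0.46 (without homozygote 1) to 0.10 (without homozygote 2). This difference was -1.01 (SE 0.40) with a covariate for embryo sex and 0.49 (SE 0.37) with the 3 probe sets averaged. The second probe set (1417574_at) gave -0.07 (SE 0.34), with homozygote 1 highest at 10.95 and homozygote 2 lowest at 9.89. The remaining, dim one (1439084_at) lay below the filter, and it read 1.62 and 1.60 in wild type 2 and heterozygote 1 against 4.81 in heterozygote 2, so it split the heterozygotes. Its deposited intensities in homozygotes were 27.4 and 12.6, beside 4.45 and 1.20 on the wild-type arrays, and the homozygote difference in the fit without the filter was 1.73 (SE 0.94, limma adjusted p = 1) from the other genotypes and 2.28 (SE 1.09) from wild type, of the opposite sign to the brighter probe sets in the first of these.

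Cxcr4, the signalling receptor of Cxcl12, was near the floor of the array. Its intensities were 0.839 and 18.9 on the wild-type arrays, 3.75 and 23.7 on the heterozygote arrays and 31.6 and 27.5 on the homozygote arrays. Both homozygotes were above the other 4 arrays, wild type 2 and heterozygote 2 were close below, and the remaining arrays were far lower. A position above the other 4 arrays held for 3.27% of tested probe sets, which do not include Cxcr4. The share among probe sets below the filter was not counted. The difference in the fit without the filter was 1.81 (SE 1.03, 95% interval -0.79 to 4.41, limma adjusted p = 1). With single arrays left out it was between 1.03 (without wild type 1) and 2.59 (without wild type 2). With a covariate for embryo sex it was -0.89 (SE 1.29, limma adjusted p = 0.984). Wild type was the only genotype with both sexes, so every value with this covariate rests mostly on the difference between wild type 1 and wild type 2. Cxcr4 is also a receptor of leukocytes and endothelium. Of the endothelial markers, 6 of 11 were below the filter, among them Pecam1, Cdh5 and Cldn5, and their summed intensity was 454 and 362 on the wild-type arrays, 339 and 319 on the heterozygote arrays and 390 and 424 on the homozygote arrays. Macrophage markers were highest in homozygote 1. The part of either cell type in the Cxcr4 values was not tested, and in bulk RNA a change in the number of such cells and in RNA per cell cannot be told apart.

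Ackr3, the scavenging receptor, had intensities of 230 and 730 on the wild-type arrays, 640 and 607 on the heterozygote arrays and 746 and 347 on the homozygote arrays. The low arrays were wild type 1 and homozygote 2, and wild type 2 and homozygote 1 both stood at 9.63 on the log2 scale. Its difference in homozygotes was 0.10 (SE 0.55, 95% interval -1.24 to 1.44, limma adjusted p = 1). It was -0.35 without wild type 1, 0.55 without wild type 2, -0.46 without homozygote 1, 0.66 without homozygote 2 and -1.69 (SE 0.50) once embryo sex entered the fit.

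Among the ELR ligands, Cxcl5 had the largest homozygote difference from wild type, which did not pass the adjusted test. Its intensities were 590 and 1568 on the wild-type arrays, 2248 and 3127 on the heterozygote arrays and 2874 and 2365 on the homozygote arrays. Both wild-type arrays were below the other 4, and wild type 1 was far below wild type 2. Heterozygotes lay above both wild-type arrays in 17.9% of all tested probe sets, and the share with homozygotes above them as well was not counted. On the log2 scale wild type lay at 9.91 ± 1.13 (SD, n = 2), heterozygotes at 11.36 ± 0.21 and homozygotes at 11.42 ± 0.33. Homozygotes were thus 2.86-fold above wild type (difference 1.51, SE 0.52, 95% interval 0.26 to 2.77) and heterozygotes 2.74-fold (1.45, SE 0.52, 95% interval 0.20 to 2.71), with limma adjusted p = 0.973 and 0.838. At an unadjusted p under 0.05, Cxcl5 was the single member of 8 in each of these comparisons by first-named probe sets. Of all tested probe sets, 1.96% were higher and 1.84% lower against wild type in homozygotes, and 2.85% higher and 2.42% lower in heterozygotes. Without wild type 1 the differences were 0.72 and 0.66, and without wild type 2 they were 2.31 and 2.25 (limma adjusted p = 0.182 and 0.192). Homozygotes and heterozygotes differed by 0.06 (95% interval -1.19 to 1.31). Against both genotypes the homozygote difference was 0.79 (SE 0.45, limma adjusted p = 1), 0.39 without wild type 1, 1.19 without wild type 2 and -0.70 (SE 0.38) once embryo sex entered the fit.

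Cxcl1, a neutrophil attractant made by many stromal cells, was lowest in wild type 1 in each of its 3 probe sets. The first (1441855_x_at) gave 44.2 and 185 on the wild-type arrays, 256 and 240 on the heterozygote arrays and 120 and 172 on the homozygote arrays. Both heterozygotes were above all other arrays, but after normalization heterozygote 2 (7.71) was only just above wild type 2 (7.68). A position above both wild-type arrays held for 17.9% of all tested probe sets, and the share above the homozygotes as well was not counted. Heterozygotes were 2.37-fold above wild type (difference 1.25, SE 0.66, limma adjusted p = 0.838). The other probe sets gave 1.59 (1457644_s_at, SE 0.36) and 1.48 (1419209_at, SE 0.51), each with limma adjusted p = 0.838. The 95% intervals of these further probe sets, 0.71 to 2.46 and 0.25 to 2.70, lay above 0, and that of the first did not (-0.35 to 2.84). The first probe set gave 0.20 without wild type 1 and 2.30 without wild type 2. Homozygotes differed from heterozygotes by -0.67, -0.91 and -0.83 in the 3 probe sets (SE 0.66, 0.36 and 0.51, limma adjusted p = 1 for each, with the 95% interval of the second, -1.79 to -0.03, below 0) and from both other genotypes by -0.05, -0.12 and -0.10. The first of these last values was -0.57 without wild type 1 and 0.48 without wild type 2, and it ran from -1.80 to 0.48 in the 16 alternative fits.

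Cxcl2, the neighbour of Cxcl1 with the same NF-kB letters in its window, also draws neutrophils and had 1 probe set (1449984_at). It gave 24.4 and 52.4 on the wild-type arrays, 32.5 and 97.6 on the heterozygote arrays and 42.0 and 19.3 on the homozygote arrays. Arrays of a genotype lay apart, with an SD of 0.81 for wild type, 0.95 for heterozygotes and 0.57 for homozygotes, and heterozygote 2 was the highest array. Homozygotes differed from the other genotypes by -0.59 (SE 0.51, 95% interval -1.82 to 0.63, limma adjusted p = 1), and with single arrays left out by -0.99 (without homozygote 1) to -0.19 (without homozygote 2). In the 16 alternative fits this difference ran from -1.72 to -0.19.

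Of the interferon-induced ligands, Cxcl10 was the only tested member with both homozygotes beyond the other 4 arrays. Its intensities were 43.3 and 29.9 on the wild-type arrays, 20.4 and 40.7 on the heterozygote arrays and 49.9 and 50.4 on the homozygote arrays. After normalization the homozygotes were at 5.58 and 5.84. Wild type 1, at 5.55, was just below homozygote 1 and closer to it than homozygote 2 was. A position above the other 4 arrays held for 3.27% of all tested probe sets, and for 1 of the 8 members, and one below the other 4 for 4.02% of probe sets and 0 members. The difference from the other genotypes was 0.64 (SE 0.30, 95% interval -0.08 to 1.35, limma adjusted p = 1), and it was between 0.43 and 1.10 in the 16 alternative fits. Against heterozygotes it was 0.88 (SE 0.34, 95% interval 0.05 to 1.70, limma adjusted p = 1), or 1.84-fold, and against wild type 0.39 (SE 0.34, limma adjusted p = 0.973). The difference from heterozygotes was 0.47 without heterozygote 1, 1.28 without heterozygote 2 and 1.54 (SE 0.68) once embryo sex entered the fit. Cxcl10 and Cxcl16 were the members at an unadjusted p under 0.05 against heterozygotes, 2 of 8 by first-named probe sets, where 1.12% of all probe sets were higher and 1.05% lower. Cxcl9 lay below the filter, and its 2 probe sets ran in opposite directions in wild type 1, which was the lowest array of one (1456907_at, 1.38) and the highest of the other (1418652_at, 3.67). They gave differences of 0.61 (SE 0.95) and -0.75 (SE 0.58), so no direction is given for it.

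Cxcl14 had intensities of 289 and 952 on the wild-type arrays, 538 and 1234 on the heterozygote arrays and 415 and 630 on the homozygote arrays in its first probe set (1418457_at). The arrays of each genotype lay apart, with an SD of 1.32 for wild type, 0.70 for heterozygotes and 0.43 for homozygotes, and the genotypes overlapped. The difference was -0.32 (SE 0.57, 95% interval -1.69 to 1.05) and in the second probe set (1418456_a_at) -0.37 (SE 0.46), with limma adjusted p = 1 for both. In the first it was -0.79 without wild type 1, 0.15 without wild type 2, -0.02 without homozygote 1 and -1.86 (SE 0.72) once embryo sex entered the fit.

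Cxcl16 gave 93.5 and 112 on the wild-type arrays, 75.9 and 77.5 on the heterozygote arrays and 136 and 101 on the homozygote arrays in its first probe set (1418718_at). Both heterozygotes were below the other 4 arrays. A position below both wild-type arrays held for 19.3% of all tested probe sets, and the share below the homozygotes as well was not counted. The heterozygote level was 6.19 ± 0.12 (SD, n = 2), against 6.79 ± 0.26 in wild type and 6.93 ± 0.19 in homozygotes. Homozygotes were 1.67-fold above heterozygotes (0.74, SE 0.25, 95% interval 0.14 to 1.34, limma adjusted p = 1) and differed from wild type by 0.14 (SE 0.25, 95% interval -0.45 to 0.74). The first of these was 0.21 (SE 0.49) once embryo sex entered the fit, and from 0.60 to 0.88 with single arrays left out. The other probe set (1449195_s_at) did not set the heterozygotes apart, at 6.56 and 5.72 beside 5.47 in wild type 1, and gave 0.45 (SE 0.48) and 0.50 (SE 0.48) for the comparisons with heterozygotes and with wild type. For heterozygotes against wild type the probe sets gave -0.60 (SE 0.25, limma adjusted p = 0.838) and 0.05 (SE 0.48). Of its proteases, Adam17 differed by 0.40 (SE 0.27) and Adam10 by 0.0012 (SE 0.22) in homozygotes against the other genotypes, and its receptor Cxcr6 was below the filter.

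**Figure D2:**
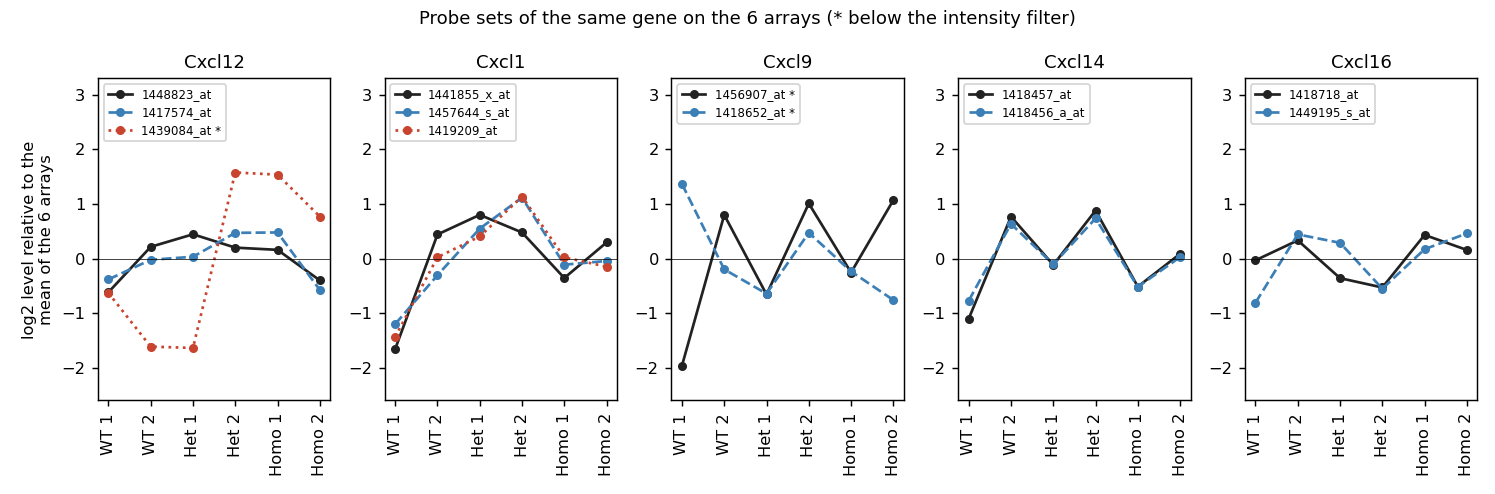
Log2 level of each probe set relative to its own mean over the 6 arrays, for the members with several probe sets; lines join the arrays of a probe set and carry no order in time. The 2 probe sets of Cxcl14 follow each other, and those of Cxcl1 share their lowest array, wild type 1, but not their highest, while those of Cxcl9 part in wild type 1 and the dim Cxcl12 probe set departs from the other two.

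**Figure D3:**
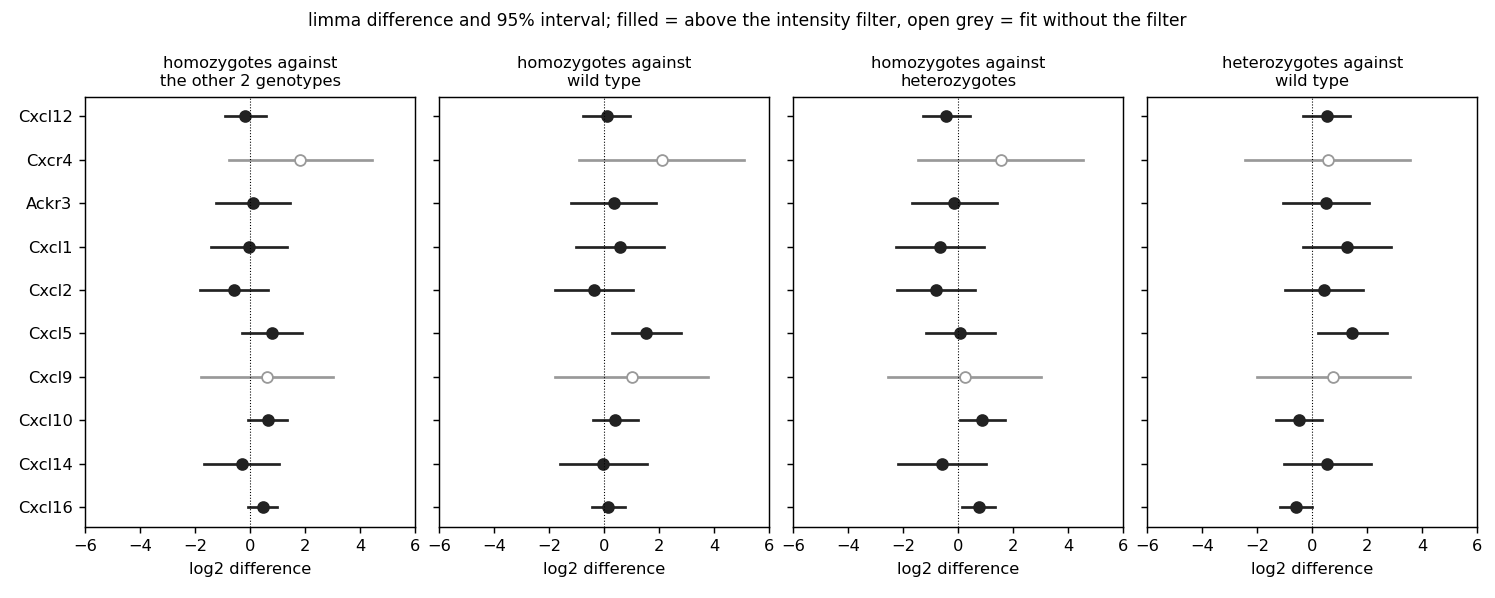
limma log2 differences of the members with 95% intervals in the 4 comparisons; open grey points are Cxcr4 and Cxcl9 from the fit without the intensity filter. The interval of Cxcl5 lies above 0 against wild type in both mutant genotypes, and those of Cxcl10 and Cxcl16 lie above 0 in homozygotes against heterozygotes, before any adjustment for the number of probe sets.

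Wild type 1 was the lowest array for 5 of the 8 tested members (Cxcl12, Ackr3, Cxcl1, Cxcl5 and Cxcl14), a position it held in 24.2% of all tested probe sets. This count and the next ones were chosen after the values were seen. With each gene centred on its own mean, the 8 members had a median level of -0.86 in wild type 1 and of 0.10 to 0.39 on the other arrays. Heterozygotes were above both wild-type arrays for 2 of 8 members (Cxcl1 and Cxcl5), beside 17.9% of all probe sets, and below them for 1 (Cxcl16), beside 19.3%. Wild type 1 was also the lowest array in the fibroblast and macrophage markers, and the highest in the epithelial and neural ones. All 16 fibroblast markers on the array passed the filter, and their median relative level was -0.67 in wild type 1 and between -0.10 and 0.35 elsewhere. Of the macrophage markers, 19 of 22 passed, all 19 with a positive difference in homozygotes (median 1.26), Itgam, Aif1 and Cx3cr1 being below the filter. Their summed intensity was 3766 and 7930 on the wild-type arrays, 6240 and 6504 on the heterozygote arrays and 18184 and 8571 on the homozygote arrays. Neutrophil markers were below the filter for 7 of 7, lymphocyte markers for 6 of 7 and erythroid markers for 5 of 6. Epithelial markers, with 4 of 9 above the filter, summed to 726 in wild type 1 and to between 245 and 418 elsewhere, and neural markers, with 5 of 8 above it, summed to 515 and 492 in homozygotes and to between 1348 and 2502 elsewhere. The part of these cells in the members' values was not tested.

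**Figure D4:**
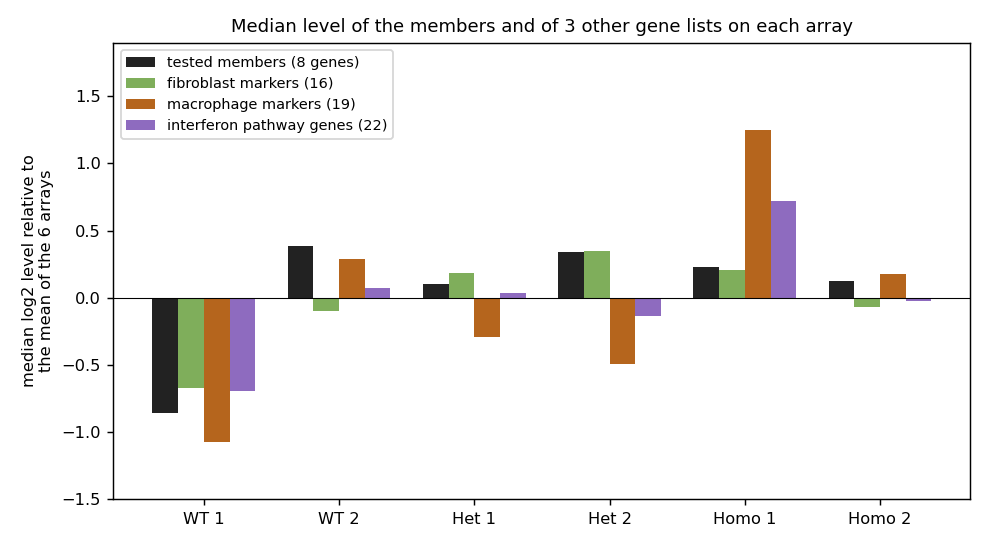
Median log2 level, each gene centred on its own mean, of the 8 tested members and of the fibroblast, macrophage and interferon pathway lists on each array. In wild type 1 all 4 bars lie between -1.07 and -0.67, and in homozygote 1 the macrophage markers reach 1.25 while the members are at 0.23.

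Embryos of the same sex could be set side by side within 2 comparisons, with a single wild-type array each and thus no test. Between males, both homozygotes minus wild type 2, Cxcl5 differed by 0.72, Cxcl10 by 0.62, Cxcr4 by 0.53, Cxcl16 by -0.04, Cxcl12 by -0.33, Cxcl9 by -0.39, Cxcl1 by -0.47, Ackr3 by -0.56, Cxcl2 by -0.96 and Cxcl14 by -0.98. Between females, both heterozygotes minus wild type 1, the differences were 2.30 for Cxcl1, 2.25 for Cxcl5, 2.14 for Cxcl9, 2.10 for Cxcr4, 1.48 for Cxcl14, 1.40 for Ackr3, 1.00 for Cxcl2 and 0.94 for Cxcl12, and they were -0.41 for Cxcl16 and -0.71 for Cxcl10. The female values all rest on the array that was lowest for most members. Cxcr4 and Cxcl9 lay below the filter, and the Cxcl9 values are those of 1456907_at. The other Cxcl9 probe set (1418652_at) went the other way between females, at 3.67 in wild type 1 and 1.66 and 2.78 in heterozygotes. Between males it read 2.11 in wild type 2 and 2.07 and 1.55 in homozygotes.

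Genes that act with the chemokines were described by lists, in homozygotes against the other genotypes, and 0 genes of any list passed the test. Of 24 tested genes of Cxcl12 signalling, 13 were positive, with a median of 0.00295. Gna13, a G protein alpha subunit, differed by 0.60 (SE 0.21), the arrestin Arrb2 by 0.74 (SE 0.36) and the G protein subunit Gng2 by 0.52 (SE 0.28). Of 12 genes of Cxcl12 and Cxcr4 regulation and heparan sulfate, 5 were positive, with a median of -0.05. Among these, the transcription factors Nr2f1, Ebf1 and Ebf3 differed by -0.50 (SE 0.20), 0.55 (SE 0.35) and 0.55 (SE 0.39). Of 28 genes of the NF-kB, interleukin 1 and tumour necrosis factor pathways, 14 were positive, with a median of 0.0096. The co-receptor Cd14 differed by 0.38 (SE 0.29), the receptor Tlr2 by 0.42 (SE 0.32) and the kinase Irak1 by -0.23 (SE 0.20), and Tnf and Il1a were below the filter. All genes named here had limma adjusted p = 1.

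The interferon pathway list, chosen like the others with earlier results of these data known, stood beside Cxcl10. Of its 22 tested genes 20 were positive, with a median of 0.51, and 3 had an unadjusted p under 0.05, beside 49.3% of all probe sets with a positive difference and 1.22% higher and 1.27% lower at that unadjusted p. The antiviral genes Oas2 and Rsad2 differed by 1.10 (SE 0.28) and 1.65 (SE 0.45), and both were highest in homozygote 1, with homozygote 2 next. The transcription factor Irf8 differed by 0.53 (SE 0.21), and it was at 5.82 and 5.51 in homozygotes against 5.02 to 5.36 on the other arrays, and each of these genes had limma adjusted p = 1. The list's relative level was 0.72 in homozygote 1 and -0.03 in homozygote 2, whereas Cxcl10 was at 5.58 in homozygote 1 and 5.84 in homozygote 2. In wild type 1 the list was at -0.70 and Cxcl10 at 5.55, above wild type 2 and both heterozygotes. The arrays highest and lowest for the list were not those of Cxcl10, and a link between the list and Cxcl10 was not tested. The gene for interferon gamma itself, Ifng, was below the filter. Homozygote 1 was also the highest array for the macrophage markers and wild type 1 the lowest, and their part in the values of the list was not tested.

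The 5 genes whose profile lay closest to Cxcl12 over the 6 arrays, by root mean square difference of centred log2 levels among 11372 genes, were Idh2 (0.08), Ntrk2 (0.08), Twist1 (0.09), Col27a1 (0.09) and Plcb1 (0.10). Like Cxcl12, each of these had its lowest array in wild type 1 and its highest in heterozygote 1. The values are a description, without a test. Ackr3 differed from Cxcl12 by 0.35, the smallest value among the other tested members, and ranked at place 2561.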

How the data were processed

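Biotin-labelled cRNA of 2 µg of total RNA from 6 primary cultures was hybridized to Affymetrix arrays, per the labels' protocols. The authors deposited linear probe set intensities, read as linear from their range, and no source used here gives the scanner software, the probe summary or the scaling. Each array held 45101 probe sets, of which 64 were controls and were left out after normalization. Intensities were turned into log2(intensity + 1.78) and quantile normalized, because the medians of the arrays spanned 0.29 log2 units. The lowest mean level tested was 4.57.

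All 6 arrays entered 1 fit with a mean per genotype (lmFit and eBayes of limma 3.58.1, R 4.3.3, 3 residual and 3.28 prior degrees of freedom). Benjamini-Hochberg adjustment ran over all tested probe sets, with a threshold of 0.05. Differences are first minus second genotype, with 95% intervals from the same fit. The method was tried on simulated data with the same spread for every probe set and larger changes than those of the tested members. That trial does not show how often changes of the members' size would be called here. Labels give 2 embryos per genotype, so p-values measure the spread between cultures. In wild type this spread takes in the difference between a female and a male embryo.

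Genes were named from the platform annotation, with symbols updated to GRCm38.p6. A gene's first-named probe set has the highest mean level. The genes named were all members, up to 3 genes of each pathway list with the smallest p, and 5 genes closest to Cxcl12. Marker lists were described by counts and levels. The members and lists were chosen with earlier results of these data known. The alternatives covered normalization, pseudocounts of 1 and 16, filters, averaged probe sets, single arrays left out, a replicate block and a covariate for embryo sex (Eif2s3y, Uty and Kdm5d minus Xist).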

Additional observations from a re-analysis of the deposited data

How the results depend on the processing

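Under 16 alternative fits, 0 of the 40 differences (10 members in 4 comparisons) passed the threshold, with limma adjusted p from 0.0985 (Cxcl5, heterozygotes against wild type, covariate for embryo sex) to 1. Of 640 values, 574 kept the sign of the reported one, and 16 of the 40 differences kept it in every fit. Among differences that exceeded their SE, a limit set after sign changes were first counted, values turned to 0.15 for Cxcl12 in homozygotes against heterozygotes with averaged probe sets, and, with the covariate for embryo sex, to -0.89 and -2.35 for Cxcr4 (against both genotypes and against heterozygotes) and to -0.70 for Cxcl5 (against both genotypes). The values with this covariate rest mostly on wild type 1 against wild type 2, since wild type was the only genotype with both sexes, and for Cxcl12 the average takes in the dim probe set below the filter. Counts of called probe sets over the whole array, 0 in each reported comparison, ranged with single arrays left out from 0 to 2 in homozygotes against the other genotypes and against heterozygotes, and from 0 to 1 in heterozygotes against wild type. The count was 2 in homozygotes against heterozygotes and 1 in heterozygotes against wild type without wild type 1, and without wild type 2 it was 2 in homozygotes against the other genotypes and 2 against heterozygotes. With the covariate for embryo sex the count was 1 in heterozygotes against wild type, and without wild type 1 and homozygote 1 together, an alternative chosen after seeing the data, it was 4 both there and in homozygotes against heterozygotes. No called probe set was a first-named one of a member. Fits with 1 array left in a genotype assume that it varies like the others.

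With the replicate number as a block, limma called 0 probe sets in each of the 4 comparisons. The differences between replicates 1 and 2 correlated across probe sets at -0.36, -0.14 and -0.14 between genotypes, and so gave no sign of cultures paired by number. They cannot exclude a pairing, since each difference rests on single arrays and the wild-type one is between a female and a male. Without quantile normalization the median of all probe sets moved to -0.11 in homozygotes against heterozygotes and 0.11 in heterozygotes against wild type. Signals near the floor limit Cxcr4 and Cxcl9. Comparisons of homozygotes with heterozygotes could not be made within 1 sex.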

Other observations

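Of 13 further CXC family genes listed, 12 were on the array and 6 passed the intensity filter, and limma called 0 of these in homozygotes against the other genotypes, with 1 of 6 positive and a median of -0.29. Pf4 (Cxcl4), a chemokine of platelets and macrophages, was positive at 1.35 (SE 0.58, limma adjusted p = 1). It lay at 9.18 in homozygote 1 against 6.34 to 7.09 on the other 5 arrays. Homozygote 1 was also the highest array for the macrophage markers, and the part of such cells in the Pf4 values was not tested. Cxcl3, an ELR ligand of the same gene cluster as Cxcl1 and Cxcl2, was at 5.25 and 5.89 on the wild-type arrays, 5.42 and 6.08 on the heterozygote arrays and 4.76 and 5.18 on the homozygote arrays, with both homozygotes below the other 4 arrays (-0.69, SE 0.30, limma adjusted p = 1), a position held by 4.02% of all tested probe sets. Cxcr3, the receptor of Cxcl9 and Cxcl10, differed by -0.43 (SE 0.31, limma adjusted p = 1). Cxcr2, the receptor of the ELR ligands, was below the filter.

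Cxcl15, also in that cluster and best known from lung epithelium, had the widest spread among these genes. Its intensities were 29.3 and 325 on the wild-type arrays, 954 and 207 on the heterozygote arrays and 280 and 123 on the homozygote arrays, so the genotypes overlapped, and homozygotes differed by -0.14 (SE 1.09). Wild type 1 was its lowest array, as it was for Cxcl1 and Cxcl5. Ppbp was at 179 in homozygote 1 and between 400.1 and 545 on the other arrays.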
